A study of Mus musculus with 4 samples.

Results

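Contactins and contactin-associated proteins are neural cell adhesion molecules, and the expression of 10 of their genes was described here across the cell classes of the embryonic mouse cortex and between controls and mice lacking Dnmt1 in Sst-lineage cells. The genes were Cntn1 to Cntn6 and Cntnap2, Cntnap4, Cntnap5a and Cntnap5b, taken by symbol from the 56884 genes of the single-nucleus tables. They were picked because their levels differed between cell classes and between genotypes in these same nuclei, so all class levels and genotype differences of these genes are descriptions and carry no test.

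Nuclei came from the medial neocortex of E16.5 embryos. Controls carried Sst-Cre/tdTomato and Dnmt1 KO animals carried Sst-Cre/tdTomato/Dnmt1 loxP2, both on a C57BL/6J background, so Cre and the tdTomato reporter were present in both genotypes. Cre was driven by the Sst gene and acts in postmitotic Sst-expressing cells, so by design progenitors and excitatory neurons keep Dnmt1 in both genotypes, which was not tested in these nuclei, and no sorting of these nuclei is described. There were 2 libraries per genotype, and control 2 was the only library of batch 2, so a difference of that library cannot be told apart from its batch. Replicate 1 of each genotype was female and replicate 2 was male by Xist and Uty transcripts, so replicate number and sex coincided.

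Barcodes with 1500 to 60000 transcripts were kept, which left 29656 nuclei (4905 to 12064 per library) with a median of 12274 to 21140 transcripts, and no barcode was shared between libraries. Levels are given in the usual CPM unit, the transcripts of a gene relative to all summed transcripts of a population in 1 library. Marker genes, none of them a contactin or a contactin-associated protein, put 20246 nuclei (68.3%) in 1 of 16 classes, and 4246 nuclei (14.3% of all) lay within 0.1 of a limit of this gate. Libraries differed in the tissue they held beside cortex: striatal-gated nuclei numbered 241 in control 1 and 41 in Dnmt1 KO 2 against 1 in each of the others, and 261 of the 267 meningeal-fibroblast-gated nuclei were from Dnmt1 KO 2. So were 172 of the 201 choroid-plexus-gated nuclei. Unnamed groups from a clustering without the 10 genes differed too. One held 1, 1278, 324 and 4 nuclei of Dnmt1 KO 1, Dnmt1 KO 2, control 1 and control 2. Another, with Cntn4 among its most enriched genes, held 199, 106, 361 and 0. Dnmt1 itself was listed at 76.1 and 46.1 CPM in the Sst+/Gad2+ nuclei of the KO libraries and at 81.2 and 66.5 CPM in those of the controls. These per-gene counts do not separate the floxed exons from the rest of the transcript, so they do not test the deletion.

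Contactins are immunoglobulin-domain proteins held to the outer membrane by a lipid anchor, and contactin-associated proteins span the membrane and are related to neurexins. Members of the families bind each other or partners such as NrCAM, L1, receptor phosphatases and amyloid precursor protein family members, and they act in axon growth, in synapse formation and in the assembly of nodal axon domains. CNTNAP2 (Caspr2) with CNTN2 (TAG-1) gathers potassium channels beside the node of Ranvier. In the embryonic cortex CNTN2 marks growing corticofugal axons and is bound by migrating interneurons, and CNTNAP4 (Caspr4) is known from interneuron synapses.

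All but 1 of the 10 genes are long. Cntnap2 spans 2244.857 kb at chr6:45036291-47281147 (GRCm39, GENCODE annotation, plus strand) and ranked 4 among 21770 protein-coding genes by span. Cntn5 (chr9:9658790-10904780, minus strand) spans 1245.991 kb, Cntn4 (chr6:105654599-106677105, plus strand) 1022.507 kb and Cntn3 (chr6:102139616-102550062, minus strand) 410.447 kb. The exception was Cntn2 (chr1:132437165-132470994, minus strand) with 33.83 kb, against a median of 19.15 kb for coding genes. Nuclear RNA holds unspliced transcripts, so intronic reads of long genes were counted. Overlapping genes that were counted held at most 2.10% as many transcripts as the gene they overlap (4930587E11Rik over Cntn3, on the other strand), and other annotated lncRNAs over these genes were not analysed here. Between Cntnap5a and Cntnap5b 5.18% of the 31-base words of the Cntnap5b exons were shared, and 6.58% with Cntnap5c, so a small part of their reads could be split between them.

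DNMT1 methylates cytosine in CG dinucleotides, and the 200 bases before the canonical transcript start are shown for 3 genes with higher levels in the Sst+/Gad2+ nuclei of both KO libraries (Cntn3, Cntn4 and Cntnap2) and for the gene with most CG dinucleotides (Cntn5). Each runs 5′ to 3′ on the strand of the gene, from GRCm39, with each CG in capitals.
Cntn3 (chr6:102441629-102441828, minus strand): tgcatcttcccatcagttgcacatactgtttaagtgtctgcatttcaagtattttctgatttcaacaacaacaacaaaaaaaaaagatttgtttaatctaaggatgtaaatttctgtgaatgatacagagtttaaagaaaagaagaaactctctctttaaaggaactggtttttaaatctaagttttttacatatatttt
Cntn4 (chr6:105654399-105654598, plus strand): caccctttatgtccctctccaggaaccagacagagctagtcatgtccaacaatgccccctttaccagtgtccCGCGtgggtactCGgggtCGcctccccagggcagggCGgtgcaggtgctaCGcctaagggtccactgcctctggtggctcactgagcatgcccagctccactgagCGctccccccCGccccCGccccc
Cntnap2 (chr6:45036771-45036970, plus strand): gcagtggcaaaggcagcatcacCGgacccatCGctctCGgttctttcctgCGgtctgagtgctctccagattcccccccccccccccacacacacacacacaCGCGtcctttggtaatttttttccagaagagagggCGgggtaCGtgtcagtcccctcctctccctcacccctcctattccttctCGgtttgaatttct
Cntn5 (chr9:10904781-10904980, minus strand): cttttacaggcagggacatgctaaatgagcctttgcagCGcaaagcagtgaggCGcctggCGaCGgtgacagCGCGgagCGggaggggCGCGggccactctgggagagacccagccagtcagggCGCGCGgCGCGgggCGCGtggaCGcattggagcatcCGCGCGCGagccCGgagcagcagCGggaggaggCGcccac

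The Cntn5 window held 24 CG dinucleotides, and 5.12% of the windows of 21770 coding genes held as many. Cntn4 and Cntnap2 had 9 each, against a median of 7 over coding genes. Cntn3 and Cntn6 had 0 in this window. The canonical start of Cntn3 lies inside its annotated span, whose outer start on the minus strand is chr6:102550062. Sequence before that outer start was not examined, so the 0 of Cntn3 holds for the printed window alone. The printed Cntnap2 window also lies inside its span, which starts at chr6:45036291. That of Cntn6 (chr6:104469383-104469582) runs past its outer start at chr6:104469476, so its 0 holds for that window alone. The canonical starts of Cntn2, Cntnap4 and Cntnap5b also lie inside their spans. Cntn2 and Cntnap5a had 7, Cntnap5b 5, and Cntn1 and Cntnap4 3 each. DNA methylation was not measured in these nuclei, so the windows say nothing on the methylation of these genes.

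Each gene had its own profile over the 16 classes. Over all retained nuclei Cntnap2 was the most abundant of the genes at 535 CPM ± 92.7 (SD, n = 4 libraries), and Cntn6 the least at 14.6 ± 4.04 CPM. Scaled to exon length the order changed: Cntn5 (53.7 CPM per kb of exon), Cntnap2 (52.1) and Cntn2 (30.5) led, followed by Cntnap4 (24.0), Cntnap5b (21.8) and Cntn1 (14.3), and Cntn6 was again last at 1.65 CPM per kb of exon. Scaled to the span of the gene, Cntn2 led with 8.74 CPM per kb. Together the 10 genes took 1.03 to 1.61% of all transcripts in Cajal-Retzius-gated nuclei, 0.259 to 0.340% in interneurons of the medial ganglionic eminence (MGE-gated nuclei) and 0.0456 to 0.0563% in radial-glia-gated nuclei.

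**Figure D1:**
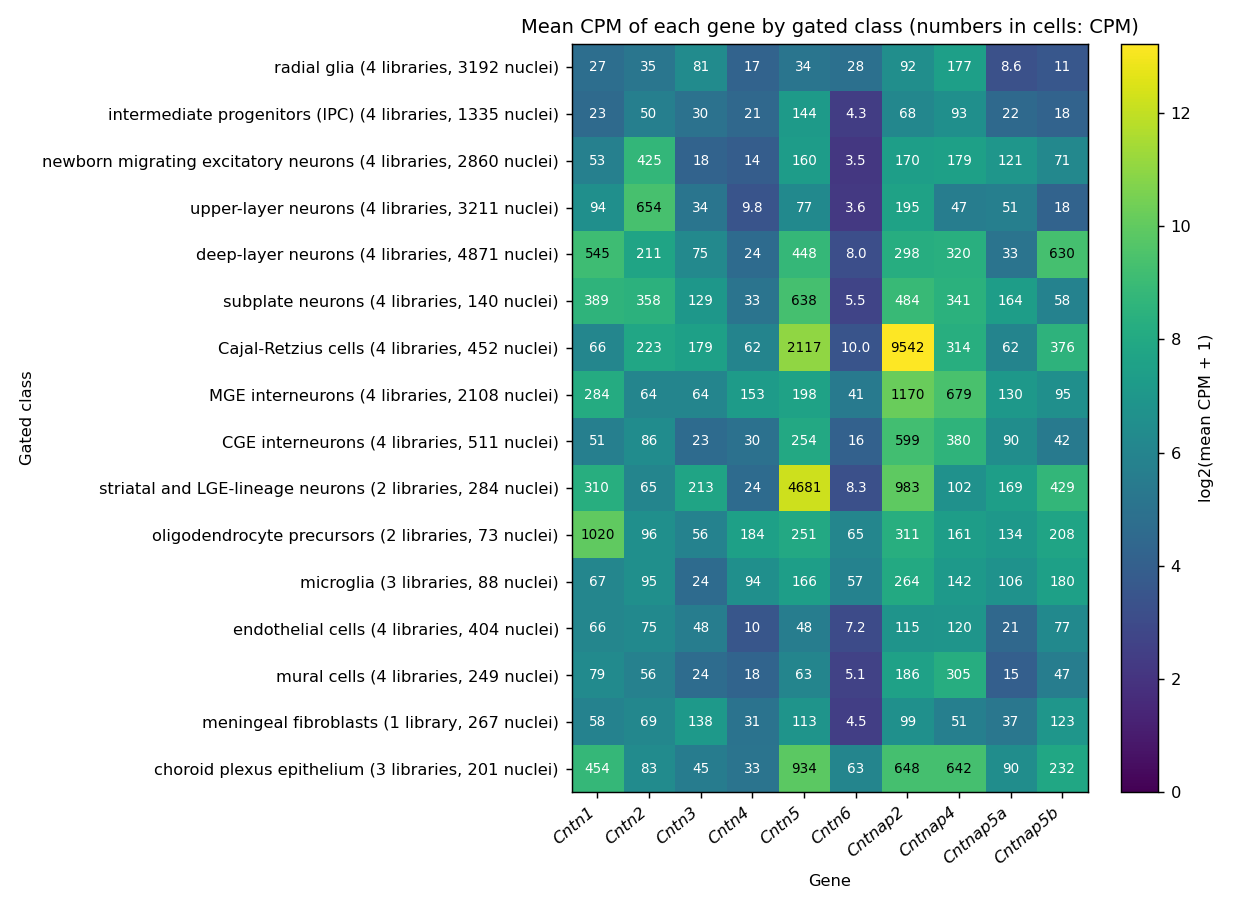
Mean CPM of each gene (columns) in each gated class (rows), over the libraries with at least 10 nuclei of the class, coloured by log2(mean CPM + 1). The Cntnap2 column peaks in Cajal-Retzius cells (9542 CPM), the Cntn5 column in striatal neurons (4681 CPM) and the Cntn1 column in oligodendrocyte precursors (1020 CPM).

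Among the contactin-associated proteins, Cntnap2 was set apart by Cajal-Retzius-gated nuclei, the Reln-expressing cells of the marginal zone. Its level there was 9455 CPM in Dnmt1 KO 1, 8970 in Dnmt1 KO 2, 7499 in control 1 and 12246 in control 2. Each of these exceeded every library of the next class, the MGE-gated nuclei, which held 1138, 1260, 1027 and 1253 CPM in the same order, and the means differed 8.16-fold. MGE-gated and striatal-gated nuclei (937 and 1030 CPM in 2 libraries) overlapped. The lowest level was in intermediate progenitors (IPC-gated, 67.5 CPM).

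At least 1 Cntnap2 transcript was found in 96.1% of Cajal-Retzius-gated nuclei on average over libraries, and in 89.8% after each nucleus was thinned to 1500 transcripts. Endothelial-gated nuclei, taken as a reference level for background RNA, gave 37.6% and, thinned, 11.2%. Mural-gated (186 CPM), microglia-gated (264) and choroid-plexus-gated nuclei (648) held more Cntnap2 than endothelial-gated nuclei (115), and meningeal-fibroblast-gated nuclei less (98.8). For Cntn6, the means of microglia (57.1 CPM) and choroid plexus (63.2) lay above that of endothelial-gated nuclei (7.19). Single libraries overlapped, at 0 to 151 CPM in microglia, 13.3 to 133 in choroid plexus and 2.13 to 13.4 in endothelial-gated nuclei. By these means the endothelial background used below is a low one for some genes. For Cntn2 it is no floor. Endothelial-gated nuclei (75.5 CPM) ranked 10 for Cntn2 among classes with at least 2 libraries, above MGE-gated (63.6), IPC-gated (50.5) and radial-glia-gated nuclei (35.4). Of the endothelial-gated nuclei 11.4% were predicted doublets, and their part in this background was not tested. The thinned share in IPC-gated nuclei (7.45%) lay below that of endothelial-gated nuclei and is not read as expression. Median transcripts per nucleus were 18766 in the Cajal-Retzius class and 12307 in the endothelial class.

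Cntnap4 was highest in MGE-gated nuclei, the class of cortical interneurons that includes the Sst lineage, at 542 CPM in Dnmt1 KO 1, 916 in Dnmt1 KO 2, 796 in control 1 and 463 in control 2. The spread between libraries of 1 genotype was as large as any step to the next classes, choroid plexus (642 CPM, 3 libraries) and CGE-gated interneurons of the caudal ganglionic eminence (380 ± 82.3 CPM, n = 4 libraries), which overlapped with it. A transcript of Cntnap4 was present in 43.9% of thinned MGE-gated nuclei and 6.98% of thinned endothelial-gated nuclei. Upper-layer-gated neurons held least, at 46.8 CPM.

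Cntnap5b, a paralogue of little-known function, had its highest CPM in deep-layer neurons. Deep-layer-gated nuclei held 597, 590, 607 and 727 CPM in Dnmt1 KO 1, Dnmt1 KO 2, control 1 and control 2, upper-layer-gated nuclei 28.7, 14.6, 13.0 and 14.6 CPM. Striatal-gated nuclei came next, at 439 and 419 CPM in Dnmt1 KO 2 and control 1. In Cajal-Retzius-gated nuclei the 4 libraries were within 364 to 386 CPM, the narrowest range of the gene in any class with 4 libraries relative to its level. By the share of nuclei with a Cntnap5b transcript as counted, Cajal-Retzius-gated nuclei (66.2%) stood above deep-layer-gated nuclei (61.2%), and after thinning below them (29.6 against 35.1%). Cntnap5a had no such contrast. Its highest gated classes, striatal (169 CPM), subplate (164), oligodendrocyte precursors (134) and MGE interneurons (130), overlapped one with the next, and it was lowest in radial glia (8.64 CPM). The ungated nuclei (9410, 31.7% of all) also had Cntnap5a among their most enriched genes, so this order leaves out part of its expression.

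Among the contactins, Cntn2 followed the excitatory lineage. Radial-glia-gated nuclei held 35.4 CPM and IPC-gated nuclei 50.5 CPM, newborn migrating neurons 425 ± 56.0 CPM and upper-layer-gated neurons 654 ± 114 CPM (SD, n = 4 libraries). The thinned shares of nuclei with a Cntn2 transcript in radial glia (2.83%) and IPC (5.12%) lay below the endothelial background. These levels are read neither as expression nor as its absence. In upper-layer-gated nuclei the level was 808 CPM in Dnmt1 KO 1, 537 in Dnmt1 KO 2, 619 in control 1 and 654 in control 2, each above all 4 newborn-neuron values (362 to 496 CPM). Subplate-gated nuclei ranged from 131 to 719 CPM and overlapped with both of these classes. Cajal-Retzius-gated nuclei were at 223 CPM and deep-layer-gated nuclei at 211 CPM, and no library of the interneuron classes exceeded 174 CPM. The gene was found in 54.4% of thinned upper-layer-gated and 6.88% of thinned endothelial-gated nuclei.

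Cntn1, which binds matrix proteins and receptor phosphatases, was highest in oligodendrocyte precursors at 1110 CPM in Dnmt1 KO 2 and 929 CPM in control 1, the only libraries with 10 such nuclei. Deep-layer-gated neurons came next with 591, 515, 473 and 600 CPM in Dnmt1 KO 1, Dnmt1 KO 2, control 1 and control 2, and did not reach the precursor values. Choroid-plexus-gated nuclei ranged from 139 CPM in control 1 to 1026 CPM in Dnmt1 KO 2 for Cntn1, so 1 library of that class overlapped with the precursors. Cntn1 separated the neuron classes: deep-layer-gated nuclei exceeded upper-layer-gated nuclei (46.7 to 131 CPM) in all 4 libraries, and MGE-gated nuclei (232 to 346 CPM) exceeded CGE-gated nuclei (11.3 to 93.8 CPM). A transcript was found in 67.9% of thinned oligodendrocyte precursors against 4.06% of thinned endothelial-gated nuclei.

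Cntn5 had its highest CPM in striatal-gated neurons, at 4321 CPM in Dnmt1 KO 2 and 5040 CPM in control 1. Cajal-Retzius-gated nuclei followed with 2396 CPM in Dnmt1 KO 1, 1707 in Dnmt1 KO 2, 1653 in control 1 and 2712 in control 2. By CPM neither class overlapped with its neighbour in the order. By the share of thinned nuclei with a Cntn5 transcript the order was the other way, 65.5% of Cajal-Retzius-gated and 52.2% of striatal-gated nuclei, against 5.75% of endothelial-gated nuclei. Radial glia were lowest, at 33.6 CPM. Of the 45445 Cntn5 transcripts of control 1, 15583 came from its 241 striatal-gated nuclei. The Cntn5 level over all nuclei was 453 CPM in control 1 and 438 CPM in Dnmt1 KO 2 (41 striatal-gated nuclei). It was 345 CPM in Dnmt1 KO 1 and 190 CPM in control 2, with 1 such nucleus each. The part of striatal nuclei in these differences was not tested.

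The remaining contactins were sparse. Cntn4 had its highest means in oligodendrocyte precursors (184 CPM, 2 libraries) and MGE-gated nuclei (153 ± 64.0 CPM), which overlapped, and 9.75 CPM in upper-layer-gated nuclei. Cntn3 was highest in striatal-gated (213 CPM), Cajal-Retzius-gated (179) and subplate-gated nuclei (129) among the classes with at least 2 libraries, with single libraries from 28.9 to 321 CPM, so these did not separate. The meningeal-fibroblast-gated nuclei, which only Dnmt1 KO 2 held in number, were at 138 CPM. The Cntn3 mean in radial glia (81.4 CPM) was above those in newborn (17.8), upper-layer (34.1) and deep-layer neurons (74.9 CPM), and of the other contactins this held for Cntn6 alone (28.2 CPM in radial glia against 3.46 to 8.02 CPM). For Cntn3 the libraries of radial glia (56.2 to 98.6 CPM) and deep-layer neurons (63.6 to 92.1 CPM) overlapped. Cntn6 did not exceed 65.1 CPM on average in any class, with oligodendrocyte precursors, choroid plexus (63.2), microglia (57.1) and MGE-gated nuclei (41.1) overlapping.

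Across the 16 class means, the profiles of the genes were alike in few pairs. On log2(CPM + 1) the highest Pearson correlations, given as a description of shared libraries and classes, were 0.767 for Cntn5 with Cntnap2, 0.717 for Cntn4 with Cntn6 and 0.715 for Cntn5 with Cntnap5b, and the lowest was −0.40 for Cntn2 with Cntn6. Cntn2 and Cntnap2, whose proteins form a complex in the adult nerve, had 0.215. Of 12499 other genes with at least 10 CPM in a class, those nearest to Cntnap2 were Gm42616 (0.929) and Sgsm1 (0.902), and Rasgef1a was near to Cntn5 (0.895).

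Nearest to Cntn1 were Plppr5 (0.912) and Grm5 (0.884), to Cntn2 Abcc8 (0.897) and Nos1 (0.888), to Cntn3 Ajap1 (0.814) and Lgi2 (0.788), and to Cntn4 Grin3a (0.869). Cntn6 was nearest to Prkcq (0.854) and 1700110C19Rik (0.823), Cntnap4 to Tsga10 (0.842) and Dgkg (0.747), Cntnap5a to 9530059O14Rik (0.900) and St8sia3 (0.857), and Cntnap5b to Mgat4c (0.850) and Lingo1 (0.815).

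The 3 paralogues outside the list filled other places. Cntnap5c was an interneuron gene, at 1384 CPM in CGE-gated and 1187 CPM in MGE-gated nuclei against 111 CPM in the next class. Cntnap3 was highest in MGE-gated nuclei (308 CPM) and then striatal-gated nuclei (123 CPM), with no overlap between the libraries of these classes. Cntnap1, the paranodal member of the family, held 555 transcripts in all retained nuclei and was highest in mural-gated nuclei, at up to 20.5 CPM in a library. It overlaps Ezh1 on the other strand, which held 13163 transcripts.

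The population the deletion targets was approached through Sst+/Gad2+ nuclei, those with at least 1 Sst and 1 Gad2 transcript. These were 16 nuclei in Dnmt1 KO 1, 136 in Dnmt1 KO 2, 40 in control 1 and 27 in control 2, and 199 of the 219 were MGE-gated. Sst, used to choose them and so left out of the tests, was at 84.6 and 127 CPM in the KO libraries. In control 1 and control 2 it was at 63.0 and 50.6 CPM, and its part in the differences below was not tested. The 10 genes together took 0.646 and 0.507% of their transcripts in the KO libraries and 0.352 and 0.326% in the controls. Cntnap2 was the largest part of this sum, and in Dnmt1 KO 1 358 of its 967 transcripts were in 1 of the 16 nuclei. The genes were chosen on such values and sums of other genes were not computed, so nothing is read from this difference.

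Within each library, Sst+/Gad2+ nuclei were set beside the MGE-gated nuclei without a Sst transcript. Cntnap2 was higher in Sst+/Gad2+ nuclei of all 4 libraries, with 4089 against 879 CPM in Dnmt1 KO 1, 1941 against 1075 in Dnmt1 KO 2, 1335 against 1004 in control 1 and 1654 against 1204 in control 2. Cntn1 was higher likewise, with 850 against 302, 373 against 207, 383 against 215 and 475 against 301 CPM in the same order. Cntn4 was lower in 3 of 4 libraries, with 103 against 263 CPM in Dnmt1 KO 2, 31.5 against 170 in control 1 and 63.6 against 135 in control 2. Dnmt1 KO 1 had 224 against 74.2 CPM, but 51.7 CPM without the 1 of its 16 nuclei richest in Cntn4. Sst+/Gad2+ nuclei were also deeper, with library medians of 13362 to 22576 transcripts against 10704.5 over all MGE-gated nuclei. Without predicted doublets 15 of 16 remained in Dnmt1 KO 1 and 121 of 136 in Dnmt1 KO 2. In control 1 it was 35 of 40, and 23 of 27 in control 2. Of all MGE-gated nuclei 5.65% were predicted doublets. The comparison nuclei were all MGE-gated, the Sst+/Gad2+ nuclei 199 of 219. The parts of depth, doublets and gating in these differences were not tested.

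Between genotypes, 9 of the 10 genes were higher and 1 lower in the Sst+/Gad2+ nuclei of Dnmt1 KO, with a median log2 fold change of 0.67 against −0.00 over the 7217 genes tested. edgeR called 0 of the 10 and 0% of all genes at an adjusted p under 0.05, with 211 genes at an unadjusted p under 0.05, and DESeq2 also called 0. With 2 brains per genotype these tests measure the spread between so few libraries. In 5 of the genes both KO libraries lay above both controls, and in 0 below. Of all genes tested, 33.5% had genotypes that did not overlap, 887 higher and 1531 lower in KO. As these values chose the genes, nothing is read from the counts, here or in the populations that follow.

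Cntn4 was at 224 CPM in Dnmt1 KO 1 and 103 CPM in Dnmt1 KO 2, and at 31.5 CPM in control 1 and 63.6 CPM in control 2. Both KO libraries were above both controls, and the log2 fold change was 1.76 ± 0.486 (SE, n = 2 against 2 libraries). Without Dnmt1 KO 1 it was 1.19, and within batch 1, which leaves out control 2, it was 2.33. With depth filtered on mapped reads it was 2.56. That filter cut control 2, which had 2.49 reads per transcript against 1.65 to 1.66 in the others, from 27 to 14 nuclei. Its summed transcripts fell from 692056 to 195017 and those of control 1 from 825025 to 446682. Dnmt1 KO 1 went from 236485 to 239177 and Dnmt1 KO 2 from 2149552 to 1770965. In these nuclei values under this filter, here and below, rest on fewer control transcripts and are not read as larger differences. The log2 ratio of the mean CPM of the genotypes was 1.10 when the nucleus richest in Cntn4 was left out of each library.

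Cntn3 was at 275 and 156 CPM in the KO libraries and at 76.4 and 82.4 CPM in the controls, a log2 fold change of 1.45 ± 0.321. The controls were close to each other and the KO libraries above them, with 1.03 without Dnmt1 KO 1, 1.49 within batch 1 and 2.17 with depth filtered on mapped reads. Cntn3 transcripts were found in 37.5 and 41.9% of nuclei in the KO libraries and in 37.5 and 25.9% in the controls, so the share of nuclei with the gene overlapped.

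Cntnap2 was at 4089 and 1941 CPM in the KO libraries and at 1335 and 1654 CPM in the controls, a log2 fold change of 1.07 ± 0.375. Dnmt1 KO 1 was far above the others, and without it the value was 0.43. With depth filtered on mapped reads the value was 1.72. The gene was found in 87.5 and 88.2% of KO nuclei and in 82.5 and 77.8% of control nuclei.

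Cntn6 was at 144 and 58.6 CPM in the KO libraries and 54.5 and 28.9 CPM in the controls (log2 fold change 1.15 ± 0.525). Cntnap5a was at 469 and 258 CPM in KO and 238 and 192 CPM in control (0.79 ± 0.336). In both genes Dnmt1 KO 2 lay just above control 1, and without Dnmt1 KO 1 the values were 0.52 and 0.32.

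For the other genes the genotypes overlapped. Cntn1 had 850 and 373 CPM in KO and 383 and 475 CPM in control, and its log2 fold change of 0.55 turned to −0.15 without Dnmt1 KO 1. Cntnap5b had 21.1 CPM (5 transcripts) in Dnmt1 KO 1 and 426 CPM in Dnmt1 KO 2 against 181 and 198 CPM in the controls, and its value of 0.43 turned to −3.08 without Dnmt1 KO 2. Cntn5, Cntnap4 and Cntn2 differed as much within KO as between genotypes, with KO values of 203 and 768, 173 and 904, and 12.7 and 80.0 CPM. Their control values were 616 and 149, 533 and 315, and 71.5 and 101 CPM.

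**Figure D2:**
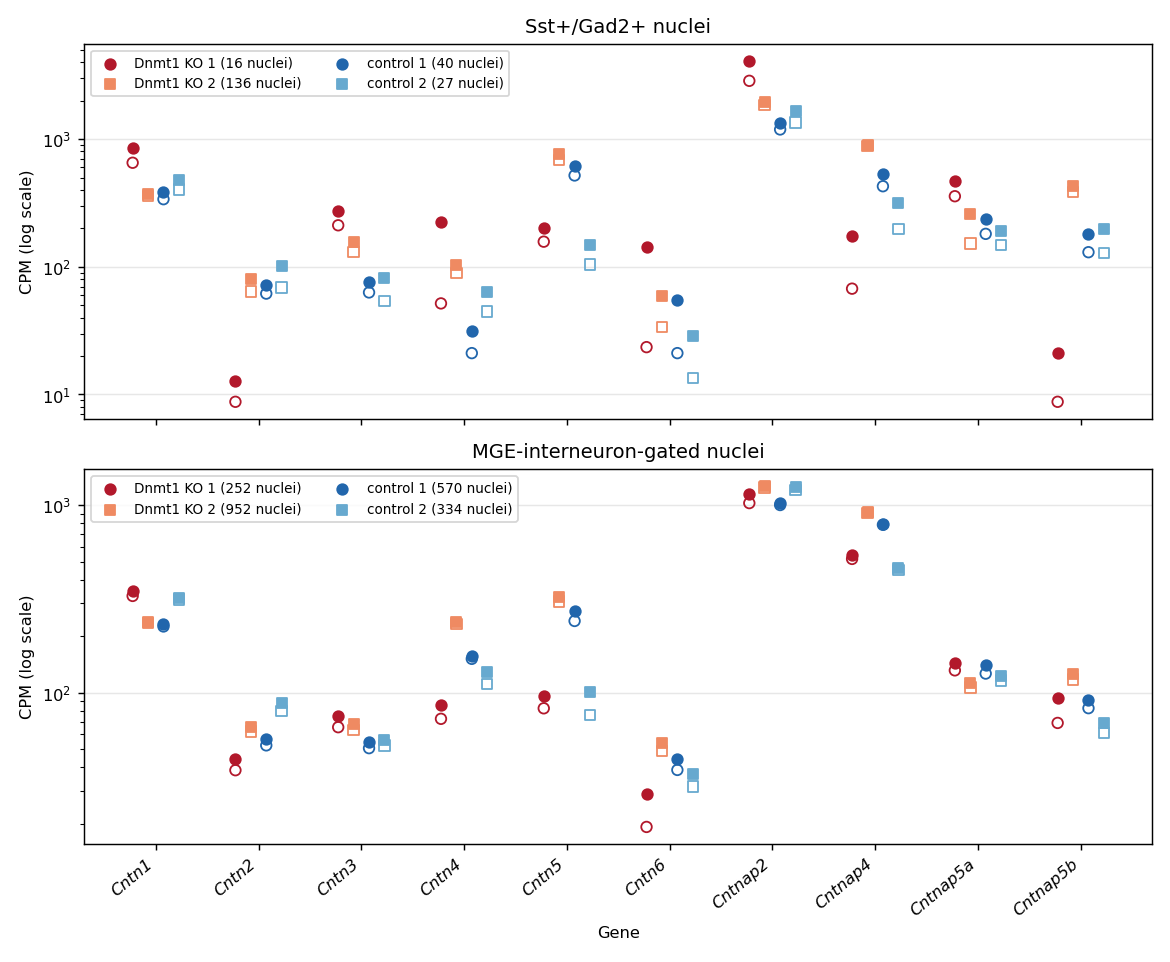
CPM (log axis) of each gene in the Sst+/Gad2+ nuclei (top) and MGE-gated nuclei (bottom) of each library: Dnmt1 KO 1 (dark red circles), Dnmt1 KO 2 (orange squares), control 1 (dark blue circles) and control 2 (light blue squares). Filled symbols are all nuclei and open symbols leave out the nucleus with most transcripts of that gene in the library; the fall from filled to open is longest for Cntn4 and Cntn6 in Dnmt1 KO 1 (224 to 51.7 and 144 to 23.5 CPM).

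With few nuclei per library, single nuclei carried much of some values. In Dnmt1 KO 1, 42 of the 53 Cntn4 transcripts (79.2%) came from 1 nucleus, and the level without it was 51.7 CPM. Of 34 Cntn6 transcripts there, 29 (85.3%) came from 1 nucleus, and 23.5 CPM remained. In Dnmt1 KO 2, 231 of 555 Cntnap5a transcripts (41.6%) were in 1 of the 136 nuclei, and 152 CPM remained. For Cntnap2 in Dnmt1 KO 1 the largest share was 358 of 967 transcripts (37.0%), and the level without it, 2861 CPM, stayed above both controls.

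When the nucleus with most transcripts of the gene was left out of every library, Cntn4 was at 51.7 and 89.2 CPM in the KO libraries and at 21.1 and 44.8 CPM in the controls. Cntn3 was then at 211 and 131 CPM in KO and 63.0 and 54.2 CPM in control, and Cntn6 at 23.5 and 33.7 CPM against 21.1 and 13.5 CPM. Cntnap5a, at 357 and 152 CPM in KO and 181 and 148 CPM in control, overlapped. This treatment was not applied to all genes, so these values have no background share. Nuclei with a Cntn4 transcript were 6 of 16 and 51 of 136 nuclei in the KO libraries against 12 of 40 and 10 of 27 in the controls, so KO and control 2 were nearly equal.

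**Figure D3:**
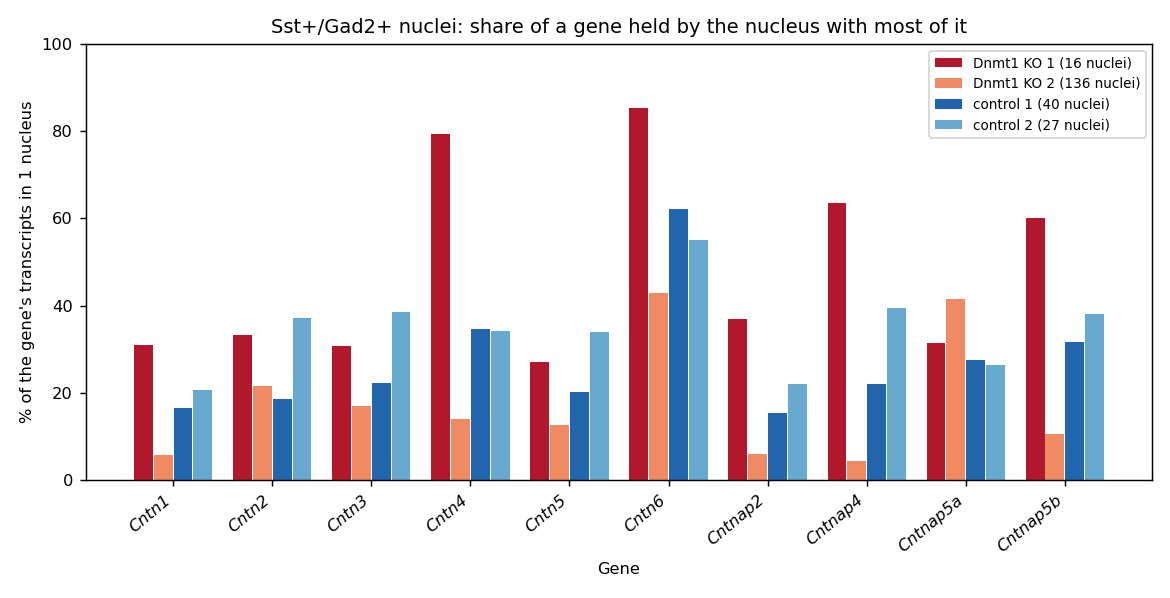
Percent of the transcripts of each gene in the Sst+/Gad2+ nuclei of a library that were held by the 1 nucleus with most of them. Bars for Dnmt1 KO 1 (16 nuclei) reach 79.2% for Cntn4 and 85.3% for Cntn6, and those for Dnmt1 KO 2 (136 nuclei) are at most 42.9%.

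The wider MGE-gated class held 252, 952, 570 and 334 nuclei in Dnmt1 KO 1, Dnmt1 KO 2, control 1 and control 2. Of the 10 genes, 9 were higher and 1 lower in KO, with a median log2 fold change of 0.19, and 2 were higher without overlap. edgeR called 0 of them and 0% of 12588 genes, with 692 at an unadjusted p under 0.05 and 1 called by DESeq2. The genotypes did not overlap in 37.8% of genes, 1525 higher and 3229 lower in KO. All genes tested there were 6132 higher and 6456 lower.

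Cntn3 again stood higher in KO, where MGE-gated nuclei had 75.0 CPM in library 1 and 68.2 CPM in library 2, than in control with 54.6 and 56.2 CPM, a log2 fold change of 0.42 ± 0.123. This class holds 199 of the 219 Sst+/Gad2+ nuclei. In MGE-gated nuclei without a Sst transcript Cntn3 was at 57.5 and 46.8 CPM in KO and 51.9 and 52.2 CPM in control, and the genotypes overlapped. Cntnap5b was at 93.5 and 126 CPM against 91.3 and 68.6 CPM (0.53 ± 0.186), which fell to 0.18 without predicted doublets. Without the 1 nucleus richest in it, Cntnap5b overlapped between the genotypes.

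The Sst+/Gad2+ differences of Cntn4 and Cntnap2 were not seen at that size in the wider class. Cntn4 was at 86.3 and 238 CPM in KO and 158 and 128 CPM in control (0.26 ± 0.392), and Cntnap2 at 1138 and 1260 CPM in KO and 1027 and 1253 CPM in control (0.13 ± 0.141). Both controls lay between the KO libraries for Cntn4, and control 2 did for Cntnap2. The difference between the populations was not tested.

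**Figure D4:**
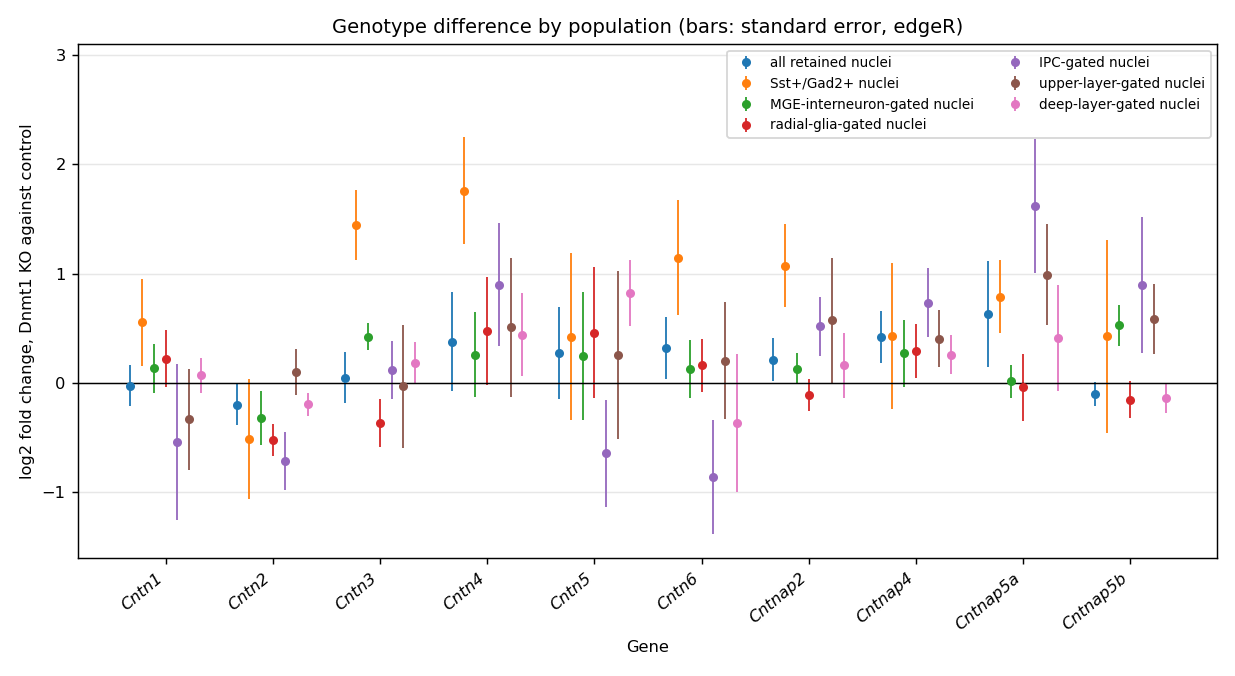
Log2 fold change, Dnmt1 KO against control, of each gene in 7 populations, with standard errors derived from the edgeR test (n = 2 against 2 libraries). Points of Sst+/Gad2+ nuclei (orange) reach 1.76 for Cntn4 and 1.45 for Cntn3.

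In the progenitors, which are outside the Cre lineage by design, radial-glia-gated nuclei had 5 genes higher and 5 lower (median log2 fold change 0.06), 3 of them lower without overlap. edgeR called 0 of the 10 and 0% of 14721 genes (946 at an unadjusted p under 0.05, 11 by DESeq2). The genotypes did not overlap in 39.7% of genes, 2176 higher and 3666 lower in KO. All genes tested there were 7277 higher and 7444 lower. Cntn2 was at 26.8 and 30.2 CPM in KO and 38.5 and 46.1 CPM in control (−0.52 ± 0.146), and Cntn3 at 56.2 and 83.5 CPM against 98.6 and 87.3 CPM (−0.36 ± 0.220). Cntnap5b was at 9.74 and 11.02 CPM against 11.6 and 12.2 CPM (−0.15 ± 0.166). Cntn3 was at −0.09 without Dnmt1 KO 1 and −0.70 without Dnmt1 KO 2, and Cntn2 at −0.06 with depth filtered on mapped reads. The shares of thinned radial-glia-gated nuclei with Cntn2 (2.83%) and Cntnap5b (1.38%) were below those of endothelial-gated nuclei (6.88 and 5.19%), and their differences are not read as changes in expression. Cntnap5b turned to 0.18 without predicted doublets and to 0.21 with the filter on mapped reads.

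IPC-gated nuclei had 6 genes higher and 4 lower, with 1 higher and 2 lower without overlap. edgeR called 0 of the 10 and 0% of 12152 genes (788 at an unadjusted p under 0.05, 34 by DESeq2). Without overlap were 39.8% of genes, 1585 higher and 3250 lower in KO. All genes tested there were 5891 higher and 6261 lower. Cntnap5a was at 13.6 and 52.3 CPM in KO and 13.2 and 9.32 CPM in control, so its log2 fold change of 1.62 ± 0.612 rested on Dnmt1 KO 2 and was 0.37 without it. Endothelial-gated nuclei held 2.13 to 40.02 CPM of Cntnap5a, a range that includes the other 3 IPC values. Cntn2 was at 32.2 and 42.2 CPM in KO and 78.3 and 49.3 CPM in control (−0.71 ± 0.264). Cntn6 was at 1.53 and 4.46 CPM against 5.74 and 5.59 CPM (−0.86 ± 0.521), a level of few transcripts. In IPC-gated nuclei too, the thinned shares of Cntn2 (5.12%) and Cntn6 (0.46%) were below the endothelial ones (6.88 and 1.20%). Cntn2 was at −0.32 without control 1 and −0.09 without predicted doublets. Cntn6 was at −0.29 without Dnmt1 KO 1, −1.78 without Dnmt1 KO 2 and −0.09 with Leiden clusters.

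Among excitatory neurons, upper-layer-gated nuclei had 8 genes higher and 2 lower (median log2 fold change 0.33), none without overlap. Of this class, 38.2% fell in the Leiden cluster named upper-layer. That cluster held 66, 869, 441 and 593 nuclei of Dnmt1 KO 1, Dnmt1 KO 2, control 1 and control 2, and the gate 228, 1152, 845 and 986. The class may thus hold different nuclei in different libraries. edgeR called 0 of the 10 and 0% of 14322 genes (410 at an unadjusted p under 0.05, 2 by DESeq2). Without overlap were 33.4% of genes, 1771 higher and 3013 lower in KO. All genes tested there were 7058 higher and 7264 lower. The largest difference was that of Cntnap5a, at 43.3 and 89.3 CPM in KO and 46.5 and 23.7 CPM in control (0.99 ± 0.461), where the libraries overlapped, and 0.31 without Dnmt1 KO 2.

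Deep-layer-gated nuclei had 7 genes higher and 3 lower (median 0.17), 1 higher and 2 lower without overlap. edgeR called 0 of the 10 and 0% of 16008 genes (922 at an unadjusted p under 0.05, 11 by DESeq2). Without overlap were 37.9% of genes, 2299 higher and 3767 lower in KO. All genes tested there were 7834 higher and 8174 lower. Cntn5 was at 691 and 445 CPM in KO and 407 and 250 CPM in control, a log2 fold change of 0.82 ± 0.301, and 0.47 without Dnmt1 KO 1. Cntn2 (195 and 194 CPM against 213 and 241 CPM, −0.20) and Cntnap5b (597 and 590 CPM against 607 and 727 CPM, −0.14) were lower by small amounts, and within batch 1 these were −0.10 and 0.00.

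Over all retained nuclei pooled, 7 genes were higher and 3 lower with a median of 0.25 against −0.01 over 21516 genes, and the genotypes overlapped in all 10. edgeR called 0 of the 10 and 0% of all genes (1612 at an unadjusted p under 0.05, 199 by DESeq2), beside 40.1% of genes without overlap. In such pooled sums fewer nuclei of a class and less RNA per nucleus cannot be told apart.

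The known partners of these proteins were counted in the same fits. Of 27 listed genes 26 had data (Ptprg was not analysed here), and edgeR called 0 in any population. Over all nuclei 13 were higher and 13 lower, with a median log2 fold change of 0.02. At the ends were the cytoskeletal linkers Epb41l2 (0.51 ± 0.164) and Epb41l1 (−0.27 ± 0.164), the matrix protein gene Tnc (0.40 ± 0.156) and the adhesion molecule gene Ncam1 (−0.21 ± 0.178). In Sst+/Gad2+ nuclei 24 of the partners were tested, of which 19 were higher and 5 lower, with a median of 0.20. All 7217 genes tested there were 3585 higher and 3632 lower, with a median of −0.00. Without overlap 4 partners were higher and 4 lower, beside 33.5% of all genes without overlap.

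The levels of most of these genes moved with the depth of the barcode. Barcodes with 1500 to under 2000 transcripts, just inside the lower limit (601 barcodes), held 5777 CPM of the 10 genes together, and those with 1000 to under 1500, just outside it (1671 barcodes), held 6245 CPM. From there the sum fell to 1055 CPM at 5000 to 7999 transcripts and rose again to 2929 CPM at 40000 to 60000, just inside the upper limit (973 barcodes), with 2255 CPM above it (718 barcodes). Cntn4 went from 761 to 45.0 CPM and Cntnap2 from 2198 to 203 CPM between barcodes of 1500 to under 2000 and of 5000 to 7999 transcripts. Cntn2 (127 and 164 CPM) and Cntnap4 (158 and 235 CPM) went the other way.

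**Figure D5:**
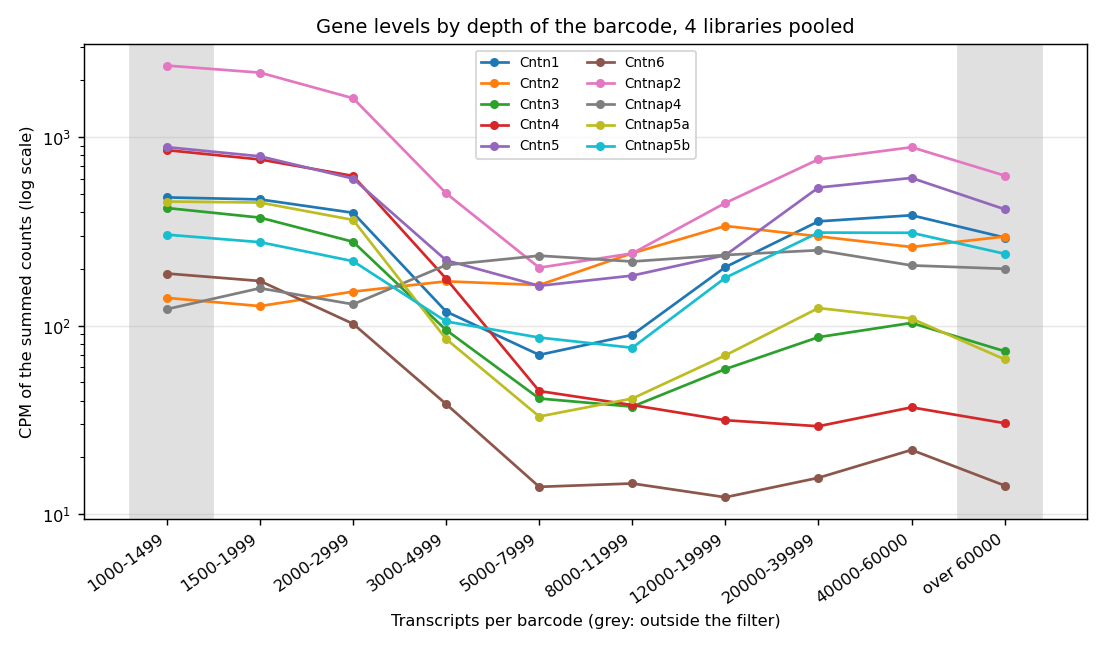
CPM (log axis) of each gene in barcodes grouped by transcripts per barcode, all libraries pooled, with the groups outside the filter in grey. Of the 10 lines, 8 fall from the shallowest groups to 5000 to 7999 transcripts (Cntn4 from 761 at 1500 to under 2000 to 45.0 CPM), and those of Cntn2 and Cntnap4 do not.

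Nuclei with fewer than 5000 transcripts numbered 1897 (6.40%) and held 1.22% of all transcripts, but 12.1% of those of Cntn4, 5.87% of Cntn6 and 3.15% of Cntn3. In Dnmt1 KO 1 they held 30.1% and in control 1 24.2% of the Cntn4 transcripts, against 4.37% in Dnmt1 KO 2 and 1.18% in control 2. Leaving them out changed the sign of none of the 70 genotype differences (10 genes in 7 populations) and moved 0 by as much as its standard error. In Sst+/Gad2+ nuclei the libraries themselves differed in depth, with a median of 14010, 13362, 14934 and 22576 transcripts in Dnmt1 KO 1, Dnmt1 KO 2, control 1 and control 2, and its part in the differences there was not tested.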

How the data were processed

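Single-nucleus RNA libraries (Evercode, split-pool barcoding) from snap-frozen E16.5 medial neocortex of 2 Dnmt1 KO and 2 control animals were used. The authors deposited raw transcript counts per barcode and gene for all barcodes, made with Trailmaker on GRCm39, and the submitters' processing notes name mm39, Seurat (version 5.0.1.9001) and R (version 4.4.1). The aligner and annotation release are not given in the sources used here.

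From 1127729 barcodes the depth range of 1500 to 60000 transcripts was taken, and a mitochondrial limit of 10% then removed 0 nuclei. The study's methods state these depth limits in reads per cell, here they were applied to transcripts, and mapped reads were the alternative. A nucleus was assigned to the class with the highest mean standardised marker level (at least 2 markers, score of at least 0.5, lead of at least 0.25), with limits set after the marker counts were seen. Class means use libraries with at least 10 nuclei of the class. Doublets predicted by scrublet (1513, 5.10%) were kept and left out as an alternative. Counts were summed per library and population and fitted with edgeR 4.0.16 (TMM, filterByExpr, quasi-likelihood test, Benjamini-Hochberg adjustment over all genes tested, threshold 0.05) in R 4.3.3, with DESeq2 1.42.0 as an alternative. Fold changes are Dnmt1 KO against control on the log2 scale. Their standard errors were derived as the size of the fold change divided by the square root of the quasi-likelihood F statistic. The edgeR fit was run on simulated counts for all retained nuclei and MGE-gated nuclei alone, with results not reported here. The simulated spread was alike for all genes, and Sst+/Gad2+ nuclei and the other populations were not simulated. Sums and clustering used Python 3.11.15 with scanpy 1.11.5. Shares of nuclei are given as counted and after thinning to 1500 transcripts. The plan named blood-lineage, vascular and choroid classes as the background level, and here the endothelial class alone was used.

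The 10 genes, their 3 paralogues and the list of 27 partners were chosen with earlier results of these data known. Named were all 10 genes, the paralogues, the partners called in a population or otherwise the pairs with the largest and smallest fold change over all nuclei, the checks Dnmt1, Sst and Gad2, and the nearest pair of genes by profile for each gene, of which some are not reported here. Other alternatives were no filter on low counts, the replicate number as a block, each library left out, a depth filter on mapped reads and Leiden clusters computed without the 10 genes. The windows before the canonical transcript starts and the gene models came from the GRCm39 reference and its GENCODE annotation.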

Additional observations from a re-analysis of the deposited data

Results flagged for a closer look

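Of the 10 genes, 3 lay on opposite sides of the controls in different populations, with both KO libraries above both controls in one and below both in the other. The difference between the populations was not tested for any of them. How many of all genes have such opposite orders was not counted, so the 3 of 10 have no background and nothing is read from them.
Cntn3 had a log2 fold change of 1.45 in Sst+/Gad2+ nuclei and 0.42 in MGE-gated nuclei against −0.36 in radial-glia-gated nuclei, the last −0.09 without Dnmt1 KO 1. Cntn6 had 1.15 in Sst+/Gad2+ nuclei against −0.86 in IPC-gated nuclei, where its level was at most 5.74 CPM and the value −0.29 without Dnmt1 KO 1 and −0.09 with Leiden clusters. Cntnap5b had 0.53 in MGE-gated nuclei against −0.15 in radial-glia-gated and −0.14 in deep-layer-gated nuclei. The thinned shares of Cntn6 in IPC-gated nuclei (0.46%) and of Cntnap5b in radial-glia-gated nuclei (1.38%) were below those in endothelial-gated nuclei (1.20 and 5.19%). Without predicted doublets the Cntnap5b MGE value was 0.18 and its radial-glia value 0.18, and without control 2 its deep-layer value was 0.00. The populations come from the same 4 libraries, and between 33.4 and 40.1% of all genes had genotypes that did not overlap in a given population.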

How the results depend on the processing

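With edgeR 0 genes were called in any of the 7 populations, also without predicted doublets, with the filter on mapped reads and with at least 5000 transcripts per nucleus, the last chosen after seeing the data. With Leiden clusters 0 were called in the 5 populations so rebuilt (MGE, radial glia, IPC, upper layer and deep layer). DESeq2 called 199 genes over all nuclei, 1 in MGE-gated, 11 in radial-glia-gated, 34 in IPC-gated, 2 in upper-layer-gated and 11 in deep-layer-gated nuclei, none of them among the 10 genes. Without a filter on low counts edgeR called 70 of 36774 genes over all nuclei, 53 of 19672 in Sst+/Gad2+ nuclei (Cntn3, Cntn4 and Cntnap2 among them), 152 of 25763 in MGE-gated, 294 of 23874 in IPC-gated (Cntn4, Cntn5, Cntnap4 and Cntnap5a), 117 of 27764 in upper-layer-gated (Cntnap5a) and 392 of 30527 in deep-layer-gated nuclei (Cntn5). The cause was not tested.

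Leaving out 1 library at a time gave 0 to 188 calls over all nuclei, 0 to 59 in Sst+/Gad2+, 1 to 99 in MGE-gated, 0 to 442 in radial-glia-gated, 0 to 118 in IPC-gated, 0 to 8 in upper-layer-gated and 0 to 84 in deep-layer-gated nuclei, with the lone library of a genotype assumed to vary like the other. Without Dnmt1 KO 2, which leaves 16 Sst+/Gad2+ nuclei for KO, the 59 of 7836 genes called there held Cntn3, Cntn4, Cntnap2 and Cntnap5b, the 442 of 15114 in radial glia Cntn3 (−0.70) and the 118 of 12649 in IPC Cntn5 (−1.77). Without Dnmt1 KO 1 the 99 of 13369 called in MGE-gated nuclei held Cntn4 (0.79) and the 40 of 12730 in IPC Cntnap5a and Cntnap5b. The 10 genes were chosen on these values, so nothing is read from these calls. Of 750 values of the 10 genes under alternatives, 176 moved by at least 1 standard error and 87 changed sign, 13 of them without Dnmt1 KO 1, 24 without Dnmt1 KO 2, 4 without control 1, 22 without control 2, 11 with the filter on mapped reads, 7 with Leiden clusters, 4 without doublets and 2 with the block. The filter on mapped reads moved 18 of 70 values by that much. In Sst+/Gad2+ nuclei it gave 2.17 for Cntn3, 2.56 for Cntn4, 1.72 for Cntnap2 and 0.38 for Cntn2. There it left control 2 with 14 nuclei, against 27 under the filter on transcripts. The class with the highest mean stayed for 6 of 10 genes with Leiden clusters, where no cluster was named striatal, and for 3 to 9 with a library left out (chosen after seeing the data), where a class in 1 remaining library drops out.

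The labels do not say that replicate numbers pair the animals, and the deviations of same-numbered libraries correlated at −0.03 to 0.174 over the populations. With the replicate block 13 genes were called in IPC-gated nuclei and 0 in the other populations, and none of the 10 genes.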

Other observations

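Barcodes with 1500 to under 2000 transcripts, in which Cntn4, Cntn6 and Cntnap2 were high, also held other genes at high levels, chosen after their values were seen. Camk2a was at 321 CPM there against 19.3 CPM at 5000 to 7999 transcripts, Grin2a at 1586 against 53.3 CPM and Snhg11 at 990 against 35.4 CPM. Only 20.5% of the retained nuclei of that depth fell in a gated class, against 69.8% at 5000 to 7999 transcripts. Genes spanning more than 500 kb took 27.5% of the transcripts of these barcodes, 19.96% at 5000 to 7999 and 26.6% at 40000 to 60000 transcripts.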
